A study of Mus musculus with 4 samples.

Results

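The regions described here are the genomic flanks of ETn insertions in the mouse genome, followed as CpG sites 1 to 5 kb from the nearest ETn capture probe. ETn insertions were located from 1274 capture probes of 120 bases labelled RLTRETN_Mm, the long terminal repeat (LTR) of the ETn family, with positions on the mm9 build. Successive probes on the same strand up to 9.5 kb apart were taken as one insertion, which gave 776 insertions, of which 438 were bounded by a probe pair, 311 rested on a single probe and 27 had their probes within 2 kb of each other. CpG sites between such probes were left out, and a site was kept where both genotypes of a medium had at least 10 reads. This left 424 CpG sites beside 94 insertions among 458443 compared sites in 2i + Vitamin C, and 540 sites beside 116 insertions among 588613 in serum. Together they were 609 sites beside 128 insertions, and 355 of them had enough reads in all 4 libraries.

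DNA methylation was measured by reduced representation bisulfite sequencing (RRBS), which reads the CpG-rich ends of MspI fragments, in mouse embryonic stem (ES) cells. The 4 libraries were Chr4-cl WT and Chr4-cl KO cells, the KO lacking a cluster of KRAB zinc finger protein (KRAB-ZFP) genes on chromosome 4, each grown in standard serum medium or for a week in 2i medium with vitamin C. Each condition had 1 library, so no comparison of conditions had a replicate check, and every interval and p-value below covers counting error only. Per the study's methods the Chr4-cl KO cells came from mice of mixed B6 and 129 background with a cre/ERT allele at the ROSA26 locus and KO and WT clones were picked individually, so that clone and genotype cannot be told apart, and whether each insertion of the reference genome lies on both alleles of these cells was not examined.

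ETn elements are mouse endogenous retroviruses without a functional envelope gene that are still capable of insertion with the help of proteins made by related elements. In ES cells KRAB-ZFPs bind retroviral sequences and recruit KAP1 (TRIM28), which brings the H3K9 methyltransferase SETDB1, and the silenced state can be accompanied by DNA methylation inside and beside the element. The 2i + Vitamin C medium lowers DNA methylation across the genome, in part because vitamin C is a cofactor of the TET enzymes that oxidise 5-methylcytosine.

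The libraries held 42684672 to 90649194 reads over CpG sites, the fewest in KO 2i + Vitamin C, and at the flank sites the median coverage in 2i + Vitamin C was 63 reads for WT and 28.5 for KO, while serum had 42 for WT and 39.5 for KO. Between both guide sites of the deletion, chr4:144973820-147227544, the WT libraries had 85282 reads in serum and 105120 in 2i + Vitamin C and the KO libraries had 820 and 1467.

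The probes and flanks on which the results turn are given first, on mm9. The first 3 sequences are ETn capture probes, shown as they lie on the strand of the element. They come from the insertion in Wiz, at chr17:32506564-32506683 and chr17:32513145-32513264 on the plus strand, and from the insertion in Camta1, at chr4:150521207-150521326 on the minus strand. The Camta1 probe matched the second Wiz probe at 119 of 120 positions, with C71T as the difference, counted from the 5′ end of the Wiz probe.
Wiz first probe: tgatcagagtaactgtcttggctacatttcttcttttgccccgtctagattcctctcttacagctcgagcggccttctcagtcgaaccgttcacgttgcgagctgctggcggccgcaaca
Wiz second probe: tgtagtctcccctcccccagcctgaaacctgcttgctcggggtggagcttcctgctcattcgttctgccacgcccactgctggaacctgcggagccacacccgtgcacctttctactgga
Camta1 probe: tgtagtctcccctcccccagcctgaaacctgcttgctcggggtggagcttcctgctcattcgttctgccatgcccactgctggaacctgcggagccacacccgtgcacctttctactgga

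The next 4 sequences are flank stretches that held sites called as changed, on the plus strand, with each CpG that had enough reads in at least 1 medium in capitals. The Camta1 stretch, chr4:150518925-150519120, lies in a coding exon of the gene and lost methylation in 2i + Vitamin C. The stretch on chromosome 7 at chr7:26361612-26361672 lies between genes and lost methylation in serum. The stretches at chr7:111869668-111869791 and chr14:43645314-43645488, also lie between genes and gained methylation in serum. Each of them lies on the inner side of a single probe, where the body of a full element would lie.
Camta1 flank: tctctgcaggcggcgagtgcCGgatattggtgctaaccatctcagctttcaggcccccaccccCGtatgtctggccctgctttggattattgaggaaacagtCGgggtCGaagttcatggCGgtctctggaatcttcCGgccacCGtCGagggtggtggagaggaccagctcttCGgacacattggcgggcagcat
Chromosome 7 flank, lost: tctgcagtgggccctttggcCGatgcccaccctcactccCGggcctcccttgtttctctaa
Chromosome 7 flank, gained: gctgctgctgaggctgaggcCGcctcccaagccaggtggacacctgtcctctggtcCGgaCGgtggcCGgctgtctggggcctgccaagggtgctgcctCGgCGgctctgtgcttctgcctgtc
Chromosome 14 flank, gained: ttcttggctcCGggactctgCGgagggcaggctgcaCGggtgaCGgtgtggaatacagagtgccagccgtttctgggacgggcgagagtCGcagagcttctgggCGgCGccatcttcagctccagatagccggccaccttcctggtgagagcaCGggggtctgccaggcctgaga

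The flank sites were less methylated in the KO library than in the WT library in 2i + Vitamin C. The mean over the 424 sites was 40.8% in WT and 35.5% in KO, a difference of -5.34 points (95% interval for counting error -6.27 to -4.41), and the median difference was -1.92 points. Methylation was lower in KO at 62.0% of the sites. Sites over 5 kb from any ETn probe differed by -1.72 points on average and were lower in KO at 56.0%. Pooling the reads of the flank sites in place of averaging the sites turned the difference to 1.41 points, and the same pooling moved the sites over 5 kb away to 0.180 points, so the size and direction of these means depend on how sites of unequal coverage are weighted.

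A site was called lost or gained when Fisher's exact test on its reads, adjusted by the Benjamini-Hochberg method over all compared sites of the genome, gave an adjusted p under 0.05 and methylation changed by at least 20 points. Such a call compares 2 libraries, not the conditions. Of the 424 flank sites in 2i + Vitamin C 11 (2.59%) were called lost and 0 were called gained, where the background over all compared sites was 0.361% lost and 0.0897% gained. At 5 to 10 kb 22 of 820 sites (2.68%) were called lost, so the share at the flanks was not particular to them, and 8 of those 22 lay within a single stretch on chromosome 10. The 11 sites belonged to 6 insertions, 6 of them to the insertion in Camta1. Without the Camta1 flank the mean difference was -3.25 points and 5 of 391 sites (1.28%) were called lost. At a change of at least 20 points with no test, 51 flank sites were lower and 7 were higher in KO, where the background over all compared sites was 3.4% lower and 1.47% higher.

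In serum the flank means differed little. The mean over the 540 sites was 66.8% in WT and 67.8% in KO, a difference of 0.991 points (0.297 to 1.69), and the median difference was 0.413 points. Over the same pair of libraries the sites over 5 kb away were 3.37 points higher in KO. Of the flank sites 11 (2.04%) were called lost, against a background of 0.115%, and 15 (2.78%) were called gained, against a background of 1.82%. The lost sites belonged to 3 insertions and the gained sites to 5. At a change of at least 20 points with no test, 20 flank sites were lower and 32 were higher in KO, against backgrounds of 0.677% and 5.69%. The flank mean in serum was -0.683 points without the flanks that held gained sites and 2.19 without those that held lost sites, shifts that leaving out flanks by their own calls gives in these directions.

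**Figure D1:**
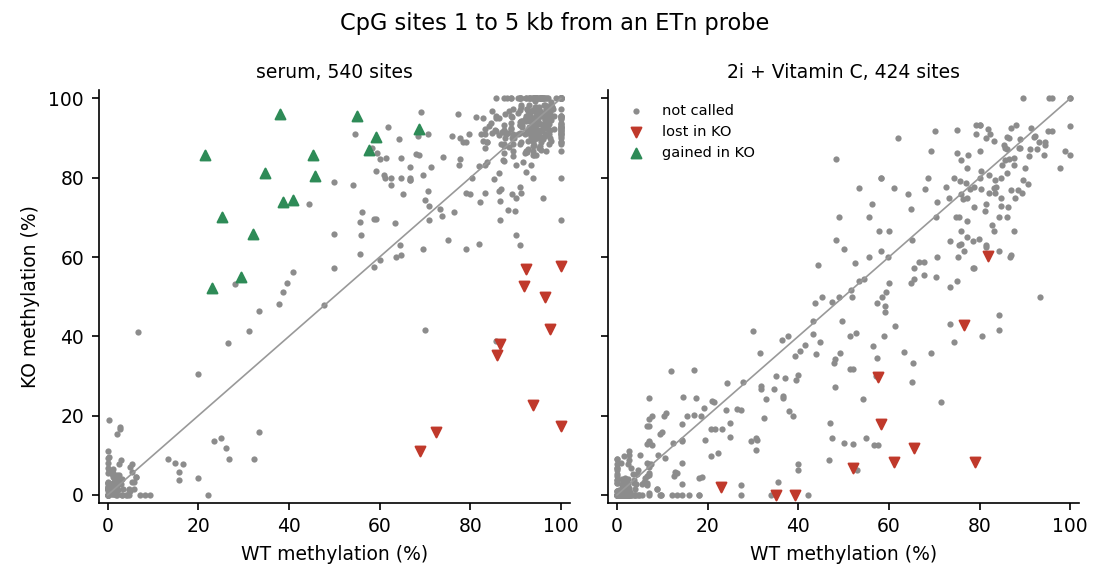
Methylation of each CpG site 1 to 5 kb from an ETn probe in the WT library (x axis, %) and the KO library (y axis, %), in serum (540 sites) and in 2i + Vitamin C (424 sites), with sites called lost (red) or gained (green) and the line of equal values. Most serum sites crowd near full methylation in both libraries with 11 lost and 15 gained sites apart from them, whereas the 2i + Vitamin C sites spread over the whole range with 11 lost sites below the line.

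Flank sites were more methylated than most of the sites RRBS reads, and this bears on the comparison with the rest of the genome. Of the flank sites in 2i + Vitamin C 43.9% had a WT methylation of at least 50%, against 10.99% of the sites over 5 kb away. Of the flank sites 58.7% lay between genes and 19.8% within 1 kb of an annotated transcription start, whereas 56.9% of the sites over 5 kb away lay within 1 kb of a start. The median number of CpG dinucleotides in the surrounding 500 bases was 18 at flank sites and 33 over 5 kb away.

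Among sites with a WT methylation of at least 50% in 2i + Vitamin C, the mean difference was -8.54 points (-10.2 to -6.90) over 186 flank sites and -8.14 over the 50313 sites over 5 kb away, so the flank mean was within counting error of the mean far from ETn. In that stratum 8 flank sites (4.30%) were called lost, against a background of 1.9%, and without the Camta1 flank 3 of 165 were called and the mean difference was -5.28 points. Between 20% and 50% WT methylation the flank difference was -9.68 points (-12.3 to -7.05) over 68 sites against -3.39 far from ETn, and at 80% or more it was -6.84 (-9.02 to -4.67) over 81 sites against -9.85. On these values the flanks lay below the rest of the genome in one range of WT methylation and above it in another. In both media the ranges were cut on the same WT reads that enter the difference. Counting error in WT therefore shifts the mean of a range, and the shift can differ between flank sites and the others.

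In serum the same stratum of at least 50% had a difference of -0.150 points (-1.02 to 0.721) over 393 flank sites and 3.57 over the sites far from ETn. In it 11 flank sites (2.80%) were called lost, against a background of 0.227%. The sites at 80% or more made up 60.0% of the serum flank sites and differed by -2.34 points (-3.20 to -1.48), against 0.712 far from ETn. Between 20% and 80% the KO library was higher both at the flanks, by 15.6 points below 50% and 10.1 points above it, and far from ETn, by 15.1 and 11.5 points.

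**Figure D2:**
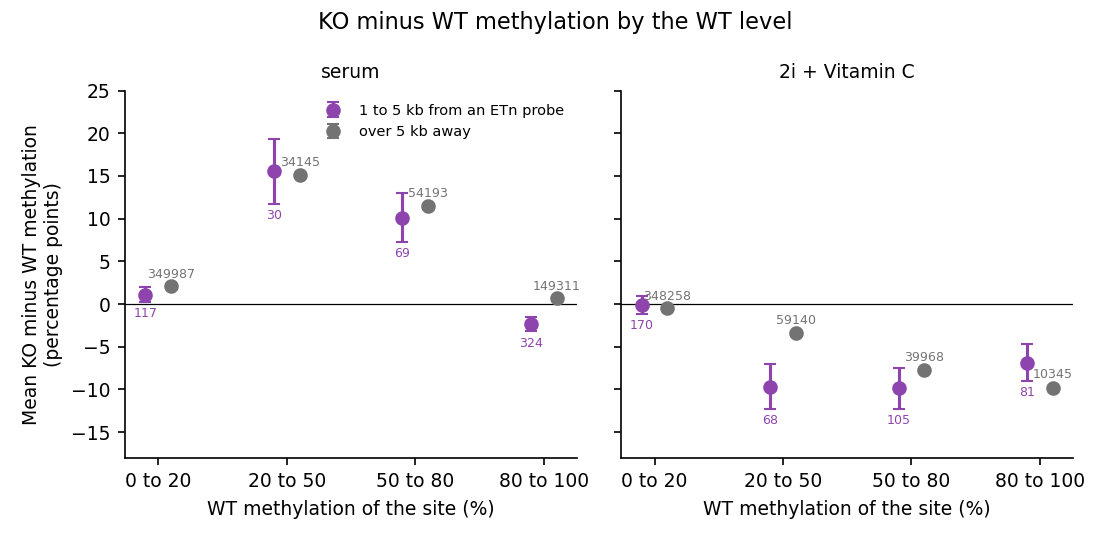
Mean KO minus WT methylation (percentage points) of sites grouped by their WT methylation (%), 1 to 5 kb from an ETn probe (purple) and over 5 kb away (grey), in serum and 2i + Vitamin C; bars are 95% intervals for counting error and small numbers are sites. In 2i + Vitamin C the flanks sit at -9.68 against -3.39 points in the band of 20% to 50%, and in serum the flanks are at -2.34 points and the other sites at 0.712 at 80% or more, and at 1.09 and 2.11 below 20%.

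By distance, the 2i + Vitamin C difference showed no gradient across the 4 steps of 1 kb. It was -4.51 points at 1 to 2 kb (100 sites), -6.54 at 2 to 3 kb (115), -4.34 at 3 to 4 kb (117) and -5.99 at 4 to 5 kb (92), with intervals of about the same width that overlapped. Lost sites numbered 4, 4, 0 and 3 in these steps. Just inside the excluded 1 kb the difference was -6.36 points over 116 sites, between probes it was -13.3 over 192 sites, and at 5 to 10 kb it was -3.54 over 820 sites. Without the Camta1 flank the step of 2 to 3 kb stood at -0.325 points.

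In serum the difference rose across the steps. It was -3.69 points at 1 to 2 kb (145 sites, -5.02 to -2.36), 1.23 at 2 to 3 kb (140), 3.52 at 3 to 4 kb (140) and 3.52 at 4 to 5 kb (115), the last of these next to the 3.37 points of sites over 5 kb away. It was -1.50 points within 1 kb and -6.60 between probes, and at 5 to 10 kb it was 1.37 points. Of the 11 lost sites 9 lay at 1 to 2 kb, and they came from 2 insertions. With each insertion counted once the step of 1 to 2 kb was -5.79 points. Without the flanks that held the lost sites it stood at -0.0698 points, an exclusion made on the outcome, which raises the mean by construction.

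**Figure D3:**
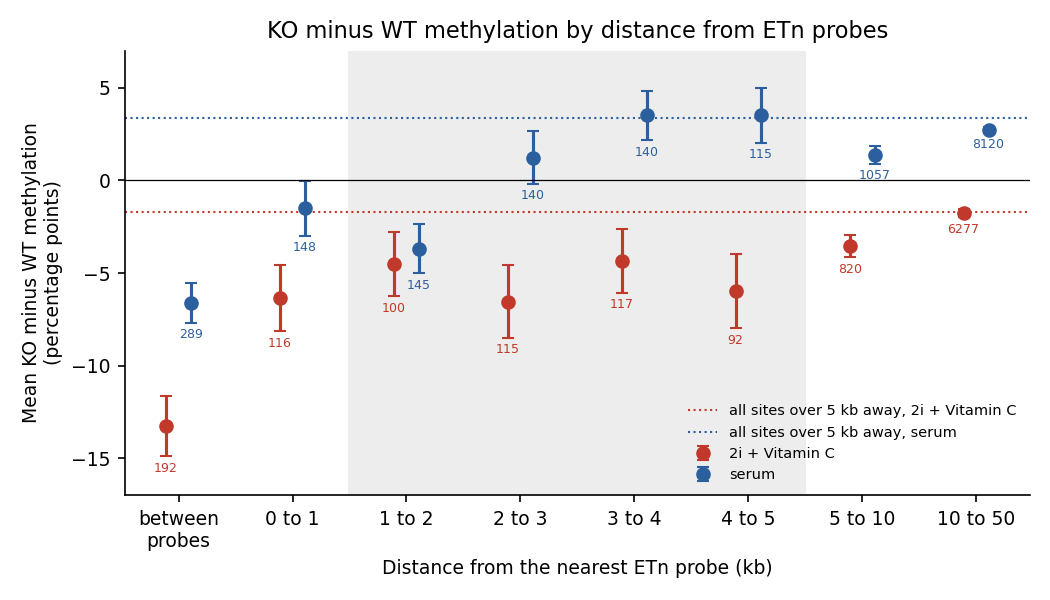
Mean KO minus WT methylation (y axis, percentage points) of CpG sites by distance from the nearest ETn probe (x axis, kb), in 2i + Vitamin C (red) and serum (blue); bars are 95% intervals for counting error, small numbers are sites, dotted lines are the means of all sites over 5 kb away and the shaded steps are the flanks. The red points lie between -4.34 and -6.54 in the 4 shaded steps, and the blue points go from -3.69 to 3.52.

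The calls fell on few flanks. Of the 33 flanks with at least 5 compared sites in 2i + Vitamin C, 22 were lower and 11 higher in KO on average, and 26 differed by under 10 points. Of the 41 in serum, 17 were lower and 24 higher, and 36 differed by under 10 points. Counting each insertion once, 67 of 94 flanks were lower in 2i + Vitamin C with a median of -3.53 points, and 44 of 116 were lower in serum with a median of 0.753 points.

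Among flanks with at least 5 compared sites, the lowest in 2i + Vitamin C was that of the insertion in Camta1, a calmodulin-binding transcription activator, marked by the single probe printed above, on the same strand as the gene. Over its 33 compared sites WT methylation ranged from 18.2% to 76.7% (median 52.9%) and KO methylation from 0% to 53.9% (median 14.3%). The means were 50.2% and 20.2%, a difference of -30.0 points (-34.3 to -25.7), with 31 of 33 sites lower in KO. Pooled over reads the flank was methylated at 52.9% in WT (95% Wilson interval 50.2% to 55.6%) and 21.6% in KO (18.96% to 24.5%).

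In serum the Camta1 flank was methylated at 91.4% in WT and 91.5% in KO over 30 sites, a difference of 0.130 points (-3.12 to 3.38). The loss was thus seen in the 2i + Vitamin C pair and not in the serum pair. Of the Camta1 sites 19 lay in a coding exon, between positions 150518239 and 150519460, on the 3′ side of the probe as the element is oriented. There the KO library read 28.4% against 63.1% in WT at 1 to 2 kb and 10.8% against 48.1% at 2 to 3 kb. At 3 to 4 kb it read 26.5% against 27.9%, and at 4 to 5 kb 38.1% against 51.1%. The other side is the inner side of this single probe, where the body of a full element would lie, and whether its sites are flank sequence was not tested. On that side the KO library read 27.3% against 58.0% at 2 to 3 kb and 9.79% against 52.2% at 4 to 5 kb, and at 12 to 13 kb 24.4% against 28.0%.

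Of the 6 Camta1 sites called lost, 5 were in the coding exon. The site at 150519460, 1747 bp from the probe, went from 58.2% of 55 reads in WT to 17.9% of 67 reads in KO (Fisher's exact test, adjusted p = 0.0012). The site at 150518988, which is in the printed stretch, went from 39.3% of 28 reads to 0% of 25 reads, where a count of 0 allows up to 12% (adjusted p = 0.0375, Fisher's exact test). The insertion lies 3.29 Mb beyond the distal guide site of the deletion on the same chromosome, and whether its position there has a part in the values was not tested.

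The insertion in Wiz, a zinc finger protein that works with the H3K9 methyltransferases G9a and GLP, had, by the same order, the lowest flank in serum and the second lowest in 2i + Vitamin C. Its pair of probes spans chr17:32506564-32513264, with the element on the opposite strand to Wiz, and its 6 sites lie in annotated exons of Wiz, some of which are coding in some transcripts and untranslated in others. Of the 6 sites, 3 were on the 5′ side of the element, 1577 to 1682 bp from the nearest probe. The other 3 were on its 3′ side, 1169 to 1328 bp from the nearest probe.

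In serum the WT library was methylated at 90.0%, 100% and 92.3% at the 5′ sites and 100%, 93.9% and 97.6% at the 3′ sites, in order along the chromosome. The KO library had 65.7%, 57.6% and 56.9% at the 5′ sites and 17.4%, 22.6% and 41.9% at the 3′ sites. No KO value reached a WT value. The mean fell by 51.9 points, from 95.6% to 43.7%, and 5 of the 6 sites were called lost, with the smallest adjusted p at position 32514451 (5.6e-17, Fisher's exact test, 93.9% of 65 reads against 22.6% of 84).

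In 2i + Vitamin C the WT library had 40.0%, 35.1% and 27.3% at the 5′ sites of Wiz and 18.8%, 18.1% and 12.8% at the 3′ sites. The KO library had 7.69%, 0% and 2.38% at the 5′ sites and 4.55%, 4.35% and 5.88% at the 3′ sites. The KO values again lay below every WT value, and the mean went from 25.3% to 4.14%. The site at 32504908 was the flank site called in both media, from 100% to 57.6% in serum and from 35.1% to 0% of 42 reads in 2i + Vitamin C, where a count of 0 allows up to 7.14% (adjusted p = 0.00099 and 0.0029, Fisher's exact test). Beyond the flanks of Wiz, 27 sites 5 to 6 kb on the 5′ side were at 1.04% in WT and 0.377% in KO in 2i + Vitamin C. With so little methylation in WT they could hardly read lower. In serum 3 sites 17 to 18 kb on the 3′ side were at 98.3% and 98.6%. On the 5′ side, 1 site at 14 to 15 kb went from 88.2% of 17 reads to 71.4% of 28 in serum. Another, at 11 to 12 kb, went from 22.2% of 18 reads to 41.7% of 12 in 2i + Vitamin C.

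**Figure D4:**
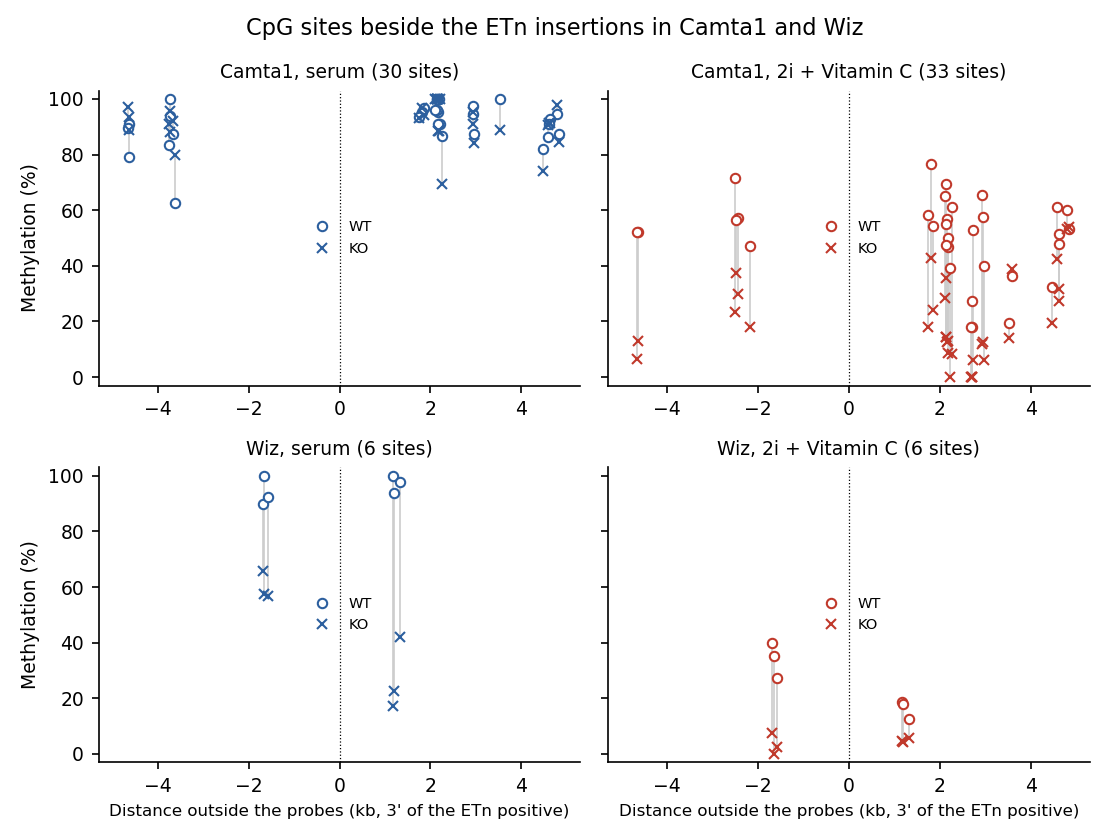
Methylation (y axis, %) of each CpG site beside the ETn insertions in Camta1 (top) and Wiz (bottom) by its distance outside the probes (x axis, kb, positive on the 3′ side of the ETn), in WT (circles) and KO (crosses), with serum on the left and 2i + Vitamin C on the right; grey lines join the values of a site. The Camta1 sites overlap between genotypes in serum and separate in 2i + Vitamin C, where 31 of 33 are lower in KO, and the Wiz sites separate in both media.

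Beside the probe pair at chr7:26354903-26360008, 5 sites were compared in serum. The protein-coding gene nearest to these sites is Ceacam2, a cell adhesion molecule, 36147 bp from them. On the 3′ side of the element, 1162 to 1643 bp from the nearest probe, WT methylation was 69.0%, 72.4%, 86.5% and 85.8%. There KO methylation was 11.1%, 15.8%, 38.0% and 35.2%. All 4 were called lost, the site at 26361651 with an adjusted p of 2.4e-20 (Fisher's exact test) over 176 and 179 reads. The remaining site, 2604 bp away, had 86.8% in WT and 77.1% in KO in serum and was called lost in 2i + Vitamin C, where it had 57.7% of 170 reads in WT and 29.9% of 278 reads in KO. On the 5′ side, 5 sites within 1 kb were methylated at 98.7% in WT and 97.0% in KO in serum, so the loss was read on 1 side of this element.

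A pair of sites lay in a non-coding exon of Gm15427 on chromosome 1, 2873 and 2919 bp from the nearest probe. They went from 92.0% and 96.6% in WT to 52.8% and 50% in KO in serum and were called lost. The pair in 2i + Vitamin C had 35.6% and 33.9% in WT and 3.33% and 0% in KO, over 30 and 17 KO reads, and neither was called. A count of 0 of 17 reads allows up to 17.6%. The direction was the same in both media at these sites, as it was in Wiz.

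The insertion in Hk1, hexokinase 1, had the third lowest flank in 2i + Vitamin C. Its 5 sites, 4362 to 4809 bp from the probes, went from 44.4% to 25.6% on average, a difference of -18.8 points (-27.6 to -10.03), and were lower in KO at every one. In serum the same sites averaged 82.7% in WT and 86.7% in KO. Next came a flank on chromosome 3 with Arhgef26 as nearest gene, 429003 bp from the compared sites. Its 10 sites went from 82.8% to 70.3% in 2i + Vitamin C and stood at 95.1% and 96.6% in serum. Another flank on chromosome 3, with Gm5773 as nearest gene, went from 71.8% to 59.8% over 8 sites in 2i + Vitamin C, while its serum means were 82.0% for WT and 81.7% for KO. None of the sites of these 3 flanks was called in either medium.

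The remaining lost sites in 2i + Vitamin C were single sites of their flanks, 1 in the non-coding RNA gene D230017M19Rik on chromosome 1 and 2 between genes. The D230017M19Rik site, at 72290581 and within 1 kb of a transcription start, had 22.9% of 450 reads in WT and 1.97% of 254 in KO, whereas in serum it had 0.273% of 367 reads in WT and 18.98% of 274 in KO. Its flank as a whole was nearly unmethylated, at 4.84% in WT and 1.36% in KO over 11 sites in 2i + Vitamin C.

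Among flanks with at least 5 compared sites the highest in serum lay beside a single probe on chromosome 7, at 111872725 to 111872844, with Olfr664, an olfactory receptor, as the nearest protein-coding gene. Its 11 sites had WT values of 4.17% to 60.9% (median 38.7%) and KO values of 0% to 96.2% (median 80.4%), with means of 38.2% and 73.3%, a difference of 35.1 points (29.3 to 41.0). Of these sites 7 were called gained, the site at 111869770 among them at 25.1% of 203 reads in WT and 70.1% of 164 in KO (adjusted p = 1.9e-15, Fisher's exact test). In 2i + Vitamin C 3 of the sites could be compared, and they averaged 12.4% in WT and 16.8% in KO. All 11 sites lie on the inner side of the probe, where the body of a full element would lie. Whether they are flank sequence was not tested.

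A flank on chromosome 3 at 124466862, 184495 bp from the nearest protein-coding gene, rose from 60.0% to 90.2% over 5 sites in serum, a difference of 30.2 points (21.7 to 38.7), with each KO value of 85.7% to 96.6% above each WT value of 45.2% to 69.1%. It was also among the highest in 2i + Vitamin C, at 10.6% in WT and 20.3% in KO. The chromosome 14 flank printed above had 61.2% and 80.8% over 11 sites in serum, higher in KO at every one and called gained at 3. In 2i + Vitamin C it had 14.3% and 15.1% over 15 sites. Both the chromosome 3 and the chromosome 14 sites lie on the inner side of a single probe, where an element's body would lie. Whether they are flank sequence was not tested. The other gained sites were 3 in and beside 1700029P11Rik on chromosome 15, where the flank mean was 28.2% in WT and 57.7% in KO, and 1 on chromosome 5.

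The remaining flanks at the ends of the order differed by less. In 2i + Vitamin C the highest was in Gm16685 on chromosome 3. It had 56.5% in WT and 70.6% in KO over 5 sites (14.1 points, 1.92 to 26.3). After it came the chromosome 3 flank at 124466862 given above (9.76 points). Then came a flank on chromosome 9 at 17999306 (9.03 points) and one on chromosome 1 at 50439313 (8.88 points). Below these was one in the coding part of Abp1, a copper amine oxidase (5.41 points over 11 sites). No site was called in the Gm16685, chromosome 9, chromosome 1 and Abp1 flanks. In serum the next 3 lowest flanks, on chromosomes 13, 7 and 1, differed by -8.90, -5.12 and -4.67 points with intervals that included 0. The next 2 highest flanks, on chromosomes 7 and 9, differed by 7.90 and 6.83 points.

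**Figure D5:**
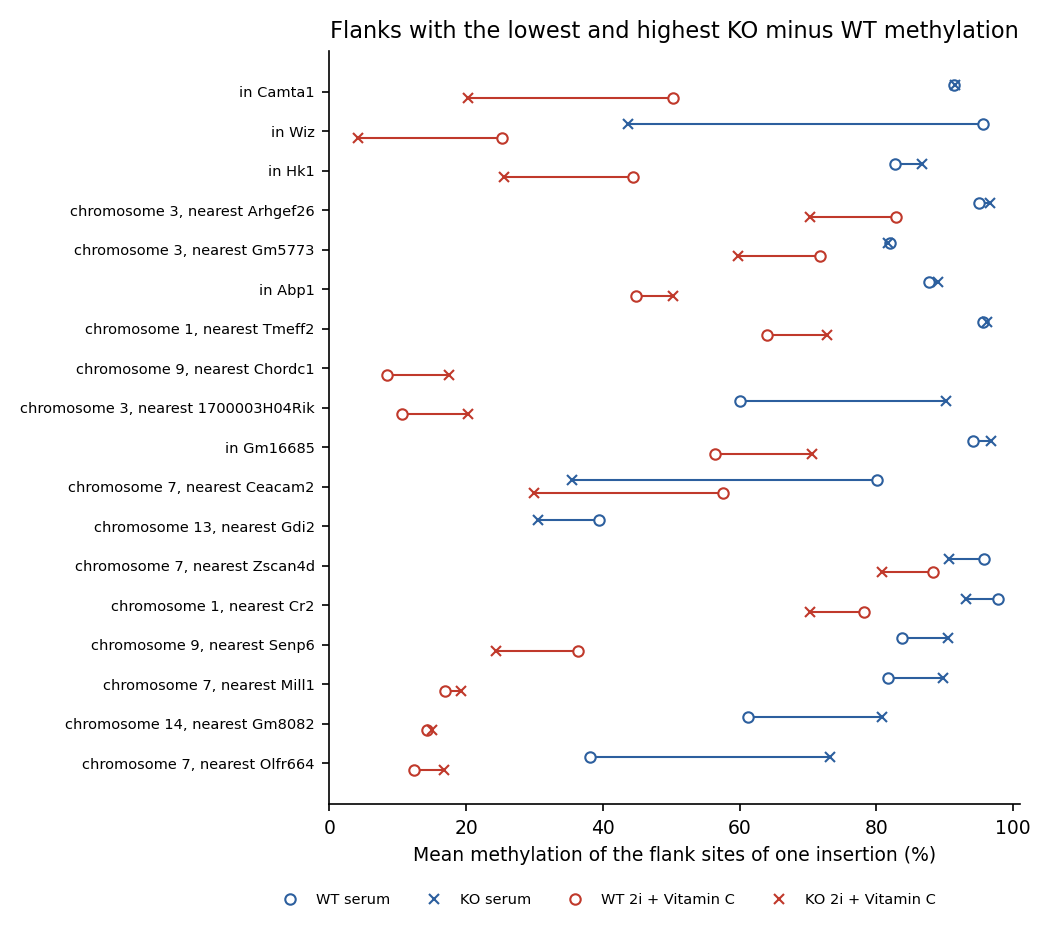
Mean methylation (x axis, %) of the flank sites of each of the 18 insertions with the lowest or highest KO minus WT methylation in a medium (rows), in WT (circles) and KO (crosses), in serum (blue) and 2i + Vitamin C (red); a line joins the genotypes of a medium, and a missing pair had no compared site. The Camta1 row has a red line of 30.0 points and no visible blue one, and the Wiz row has long lines in both media.

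Some flank sequence resembled ETn itself, in places over short stretches only. At 205 of the 609 flank sites (33.7%) a match to an element placed by the probes covered the site, 203 of them to ETn. The match could be any part of the sequence reaching 50 bases to each side. Among the named or called flanks it was as short as 29 bases, and identity went down to 72.45%. The share was 6.16% of every hundredth site over 5 kb away that had enough reads in 2i + Vitamin C. On the side of a single probe where the body of the element would lie, the share was 50.3%. Whether these sites lie in parts of an element that the probes did not enclose, and whether reads of other copies were placed there, was not tested.

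The 135 aligned sites in 2i + Vitamin C differed by -1.36 points (-3.16 to 0.438) and the 289 other sites by -7.19 (-8.27 to -6.12). Of the 11 lost sites 10 were not aligned. At a WT methylation of at least 50% the values were -1.98 over 84 aligned sites and -13.95 over the other sites, the latter -8.84 without the Camta1 flank. In serum the aligned sites were 3.46 points higher in KO and the others differed by -0.306 points, and 8 of the 15 gained sites were aligned. All 11 sites of the chromosome 7 flank that gained methylation aligned to ETn at 90.1% to 93.8% identity, and all 5 of the chromosome 3 flank at 97.0% to 99.0%, whereas none of the Wiz sites and 2 of the Camta1 sites aligned.

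By side, the sites 3′ of the element differed by -8.73 points over 161 sites in 2i + Vitamin C and -1.69 over 205 in serum, and held 7 of the 11 lost sites in each. Those lost sites came from 3 insertions in 2i + Vitamin C and 2 in serum. The 5′ sites differed by -2.44 and 0.508 points. Pooled over reads, the 3′ and 5′ sites differed by 3.15 and 2.13 points in 2i + Vitamin C and by -3.05 and -3.08 in serum, so the contrast of the sides depends on weighting. The sites on the inner side of single probes differed by -3.99 points in 2i + Vitamin C and 6.12 in serum, where they held 11 of the 15 gained sites, from 3 insertions. Sites of unclear side differed by -5.63 points over 15 sites and -1.95 over 17. The Camta1 sites in the coding exon count among the 3′ sites. By annotation, the 35 exonic flank sites in 2i + Vitamin C differed by -25.1 points. Of these, the 19 in the Camta1 exon differed by -36.95 points (-42.4 to -31.5) and the 16 of 5 other flanks by -11 points (-16.3 to -5.67).

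At the 355 sites with enough reads in all 4 libraries, WT methylation went from 64.2% in serum to 42.1% in 2i + Vitamin C, and KO methylation from 65.3% to 37.0%. The flanks kept 65.5% of their serum level in WT and 56.7% in KO, close to the 64.1% and 54.0% at 5 to 10 kb and the 60.1% and 50.1% at 10 to 50 kb, and all sites over 5 kb away kept 50.8% and 39.9%. The KO minus WT difference was 1.03 points in serum and -5.09 in 2i + Vitamin C, and the difference between the media was -6.12 points (-7.33 to -4.90 for counting error), against -4.86 far from ETn. These groups differ in WT level. At a WT serum level of at least 50% the difference between the media was -7.25 points over 247 flank sites. In that stratum, sites over 5 kb away had 84.6% in WT and 88.3% in KO in serum. In 2i + Vitamin C they had 42.1% and 38.3%, so their difference between the media was about as large. By distance, over the 355 sites, the difference between the media was -2.25, -6.30, -7.52 and -8.72 points from the nearest to the farthest step. Of the 355 sites 123 were higher in KO in serum and lower in 2i + Vitamin C, 37 went the reverse way, 94 were lower in both, 68 were higher in both and 33 were tied in a medium. With 1 library in each condition, no test of the difference between the media was possible.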

How the data were processed

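RRBS libraries of Chr4-cl WT and KO ES cells (1 per condition, 4 in all) were made by MspI digestion and bisulfite conversion. Per the study's methods and the submitters' processing notes the authors trimmed reads with Trim Galore and aligned them with Bismark to mm9. The deposited tables give, per CpG, the number of reads and of methylated reads, as counts, and the methylated fraction. Here methylation is methylated counts over reads, in percent. Positions were checked against mm9, and rows listed more than once (332 and 830 in 2 tables) were left out. Probe positions came from the capture probe headers, and annotation from GENCODE M1. Of the 1274 probes 1224 lay on assembled chromosomes and 1224 matched mm9, and 746 of the 776 insertions were on assembled chromosomes.

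Where WT and KO both had 10 reads or more, a site's reads entered a two-sided Fisher's exact test, adjusted over all such sites by the Benjamini-Hochberg method. The procedure was tried on simulated reads that had no variation between libraries and no reads shared by neighbouring sites. That trial therefore cannot say how the calls behave under either. Intervals (95%) are Wilson intervals for pooled reads or cover the counting error of a mean of site differences. These cover the counting of reads only. The study's methods describe no molecular identifiers, so repeated reads of one molecule could not be told apart and the intervals can be too narrow. They also take the reads of each CpG as independent. Neighbouring CpG sites can be read by the same molecules, so the intervals can be too narrow where sites lie close together. For probe pairs, 99.2% of probes were assigned to the right end of the element by shared 12-base words. Windows reaching 50 bases to each side of a site were aligned with BLAST 2.17.0. Python 3.11.15, numpy 2.4.6, pandas 2.3.3, scipy 1.17.1 and numba 0.67.0 were used.

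Flanks were named if among the 5 lowest or 5 highest mean differences of a medium with at least 5 sites, and single sites if called in both media; the flanks of all other called sites were named after their values were seen. The members, lists and tests were chosen with earlier results of these data known. Alternatives for coverage, weighting, distance to other elements, annotation and WT level are given at the end.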

Additional observations from a re-analysis of the deposited data

Results flagged for a closer look

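The following values had opposite directions in the 2 media, and the differences between the media were not tested, since each condition had 1 library. At the 355 flank sites with enough reads in all 4 libraries KO minus WT methylation was 1.03 points in serum and -5.09 in 2i + Vitamin C. In the step of 3 to 4 kb it was 3.48 and -4.03 points over 99 sites, and in the step of 4 to 5 kb 2.79 and -5.94 over 76 sites. The flank in Hk1 had 4.001 points in serum and -18.8 in 2i + Vitamin C over 5 sites, and the chromosome 3 flank with Arhgef26 as nearest gene had 1.48 and -12.5 over 10 sites. The single site in D230017M19Rik had 18.7 points in serum, under the 20 points of a call, and -20.9 in 2i + Vitamin C.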

How the results depend on the processing

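No paired analysis was possible because each condition had 1 library. Differences are in points. In 2i + Vitamin C the flank mean was -3.48 at a minimum of 5 reads, -4.20 on the outer side of probe pairs, -7.19 without aligned sites, -8.54 at a WT level of at least 50% and -3.25 without the Camta1 flank, and with pooled reads it turned to 1.41. The lost count was 3 on the outer side of pairs, 4 with thinned reads, 5 without the Camta1 flank and 51 with no test, which gave 7 gained. Steps turned positive with pooled reads (0.338, 5.31 and 0.712 at 1 to 2, 2 to 3 and 3 to 4 kb) and on the outer side of pairs (0.364 at 2 to 3 kb). The step of 4 to 5 kb less that of 1 to 2 kb was -1.48, and 1.58 on the outer side, 1.15 without aligned sites and -4.47 at a WT level of at least 50%.

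In serum the flank mean turned to -0.592 with pooled reads, -1.38 on the outer side, -0.306 without aligned sites, -0.150 at a WT level of at least 50% and -0.683 without gained flanks. It was 0.106 with each insertion counted once and 2.19 without lost flanks. The lost count was 7 with 10 reads in all libraries and 20 with no test. The gained count was 8 with 10 reads in all libraries, 3 on the outer side, 7 without aligned sites, 4 at a WT level of at least 50% and 32 with no test. The step of 2 to 3 kb turned to -0.160 (all libraries), -0.930 (pooled), -0.533 (each insertion once), -0.291 (outer side), -1.48 (not aligned), -0.709 (WT at least 50%) and -0.842 (without gained flanks). The rise from 1 to 2 kb to 4 to 5 kb, 7.21, was 4.74 (all libraries), 12.04 (pooled), 9.55 (each insertion once), 12.5 (outer side), 10.9 (not aligned) and 3.59 (without lost flanks). The difference between the media, -6.12, was 1.17 with pooled reads, -7.37 away from transcription starts and -4.32 without the Camta1 flank.

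Leaving out the Camta1, lost or gained flanks, and aligned sites for the calls and steps, was chosen after seeing the data. Pooling weights each site by its own library's coverage. For the other changes the cause was not tested. Of the 118 alternative values of these main results 81 stayed within the main value's counting interval or, for a number of sites, within 1.5 times the main number. Beyond these limits 28 moved and 9 changed sign. The values of the single 1-kb steps are not among the 118. Of the step values, 75 stayed within these limits, 26 moved and 11 changed sign. Some of the 81 could hardly move. Leaving out sites near probes of the RLTR4_Mm family removed no site, and autosomes alone kept 422 of 424 sites in 2i + Vitamin C and 538 of 540 in serum. The median of 28.5 KO reads at flank sites in 2i + Vitamin C limits the calls there.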
